A study of Macaca mulatta with 304 samples.

Results

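The whole blood of rhesus macaques on Day 21 after whole thorax irradiation was compared with the blood each animal gave before the exposure. An animal was included if it had both a Day 21 sample and a control sample. This held for 24 of the 28 animals with a Day 21 sample, which gave 48 samples, or 15.8% of the samples of the series. Of these animals, 12 received 9.8 Gy (LD) and 12 received 10.7 Gy (HD), each group with 6 females and 6 males. The controls were drawn 2 days before irradiation and the other 4 HD animals had no control sample to pair with. The animals were adult macaques (Macaca mulatta) of Chinese origin, and total RNA of whole blood was depleted of ribosomal RNA and sequenced as paired reads.

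No unirradiated animals were followed. All animals were given tramadol or buprenorphine over a period that included Day 21, and animals with tachypnea could receive dexamethasone. Blood was drawn repeatedly between the control and Day 21. These treatments, the draws and the passage of time cannot be told apart from irradiation. The samples were put here into 3 library series, called A, B and C, by the library number in the labels. Series A holds lower numbers than series B, and the series C samples have no distinct numbers. The labels do not give the meaning of these numbers. All 12 LD animals had both samples in series A. Among HD animals, 5 went from A to B, 3 went from A to C and 4 had both samples in C, so dose and library series cannot be told apart for most comparisons of LD with HD.

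Total counts ran from 6676757 to 14609879 in the control samples (median 11697186) and from 4692885 to 15321427 on Day 21 (median 9909920). All HD Day 21 samples lay between 4692885 and 8093159 counts, below every LD Day 21 sample, which lay between 11726680 and 15321427. The 4 animals with both samples in series C (B2003, B2005, B2503 and B2504) stood apart in globin level, as given below, and the counts of calls are also given without them. They are called the series C animals here. Of 24 marker genes of blood cell types, 23 could be tested, and all 23 were above 0 in all 48 samples.

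Red cells are made in the bone marrow from progenitors in which the transcription factors GATA1 and KLF1 switch on the globin, heme and red cell membrane genes. The youngest red cells, the reticulocytes, enter the blood with RNA left in them, while mature red cells hold very little. White cells contribute most other messages of whole blood, and B cells are known for their sensitivity to radiation. Interferon-stimulated genes are antiviral genes that white cells switch on together after type I interferon.

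In the 24 animals, 1052 of 13751 tested genes were higher on Day 21 than in the controls (7.65%) and 375 were lower (2.73%). A gene was called at an adjusted p of 0.05 or less in a quasi-likelihood test (edgeR) that blocked on the animal, and a fold change of 1.5 or more. Of the genes called higher, 22.4% were higher in 24 of 24 animals, and 36 genes were called and lower in 24 of 24 animals. No tested gene (0 of 13751) had ranges of depth-scaled counts (CPM, counts over the scaled total of the library) that did not overlap between the controls and Day 21. In bulk blood, fewer cells of a type and less RNA per cell cannot be told apart.

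The genes of red cell formation rose together. Of the tested erythroid regulators and maturation genes, 30 of 37 rose and none fell, with a median log2 fold change of 1.27 where all tested genes had a median of 0.00. Of the red cell membrane and skeleton genes, 18 of 22 rose and 1 fell (median 1.46). Of the globin and heme synthesis genes, 13 of 17 rose and none fell (median 0.86). The summed CPM of each of these lists was higher in 24 of 24 animals.

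HBB (chr14:63067679-63069138, Mmul_10) encodes beta globin and HBA (chr20:190724-191412) alpha globin, the protein chains of hemoglobin. The library kit is made to remove globin messages, so these values are what depletion left. HBB lay between 3.64 and 327 CPM in the controls (median 88) and between 20.6 and 3539 CPM on Day 21 (median 916). It was higher in 24 of 24 animals, with a log2 fold change of 3.22 ± 0.23 (SE; adjusted p = 8.88e-12). HBA lay between 1.54 and 70.8 CPM in the controls (median 19.6) and between 7 and 679 CPM on Day 21 (median 169.5). It rose in 24 of 24 animals by a log2 fold change of 3.25 ± 0.18 (adjusted p = 1.7e-13), although the ranges of the 2 groups overlapped.

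The lowest HBB values were those of the 4 series C animals. In them HBB lay between 3.64 and 20.1 CPM in the controls and between 20.6 and 60.0 CPM on Day 21. In the other 20 animals the controls lay between 23.3 and 327 CPM and the Day 21 samples between 340.1 and 3539 CPM. The 4 animals were set apart after their globin level was seen, so these ranges depend on that choice. The log2 fold change of HBB was 1.57 in the series C animals and 3.48 in the other 20. The 3 animals that went from A to C had HBB at 1340.4, 2097 and 3539 CPM in their series C libraries of Day 21. The KLF1 controls of the 4 series C animals (37 to 74.3 CPM) lay within the range of the series A controls (5.79 to 147 CPM). What set the globin level of the 4 animals apart was not tested.

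ALAS2 (chrX:54735685-54755120), the first and rate-limiting enzyme of heme synthesis in red cells, had a median of 4471 CPM in the controls (861 to 9247) and 13633 CPM on Day 21 (5691 to 38362). It was higher in 24 of 24 animals, with a log2 fold change of 1.89 ± 0.16 (SE; adjusted p = 2.29e-10). AHSP (chr20:28978912-28980060), a chaperone of free alpha globin, went from a median of 20.8 CPM (3.46 to 94.4) to 87.2 CPM (18.9 to 358). Its log2 fold change was 2.03 ± 0.15 (adjusted p = 1.87e-11), again with a rise in every animal.

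KLF1, an activator of beta globin, lay between 5.79 and 147 CPM in the controls (median 40.0) and between 22.7 and 699 CPM on Day 21 (median 154). It was higher in 23 of 24 animals, all but B2005, with a log2 fold change of 2.07 ± 0.17 (SE; adjusted p = 1.14e-10). GATA1 (chrX:48787063-48794847), the master factor of the erythroid and megakaryocyte lineages, went from a median of 9.02 CPM (5.17 to 19.6) to 22.1 CPM (12.3 to 73.9) and rose in 22 of 24 animals (log2 fold change 1.20 ± 0.12, adjusted p = 3.86e-09). Among the maturation genes of this list, SELENBP1, a selenium-binding protein abundant in red cells, rose by a log2 fold change of 2.07. TRIM58, a ubiquitin ligase of late erythroblasts, rose by 1.68, and DCAF12, a receptor of a ubiquitin ligase complex, by 1.52. All 3 rose in 24 of 24 animals.

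The membrane genes gave the same picture. SLC4A1, the band 3 anion exchanger of the red cell membrane, lay between 53.2 and 2415 CPM in the controls (median 660) and between 387 and 7559 CPM on Day 21 (median 1795). It rose in 24 of 24 animals, with a log2 fold change of 1.94 ± 0.17 (SE; adjusted p = 2.12e-10). ADD2, an adducin that links actin to spectrin, rose by a log2 fold change of 1.98, and DMTN, the actin-bundling dematin, by 1.77. TSPAN33, a tetraspanin also found on activated B cells, was the member that fell (log2 fold change -0.66, lower in 20 of 24 animals).

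**Figure D1:**
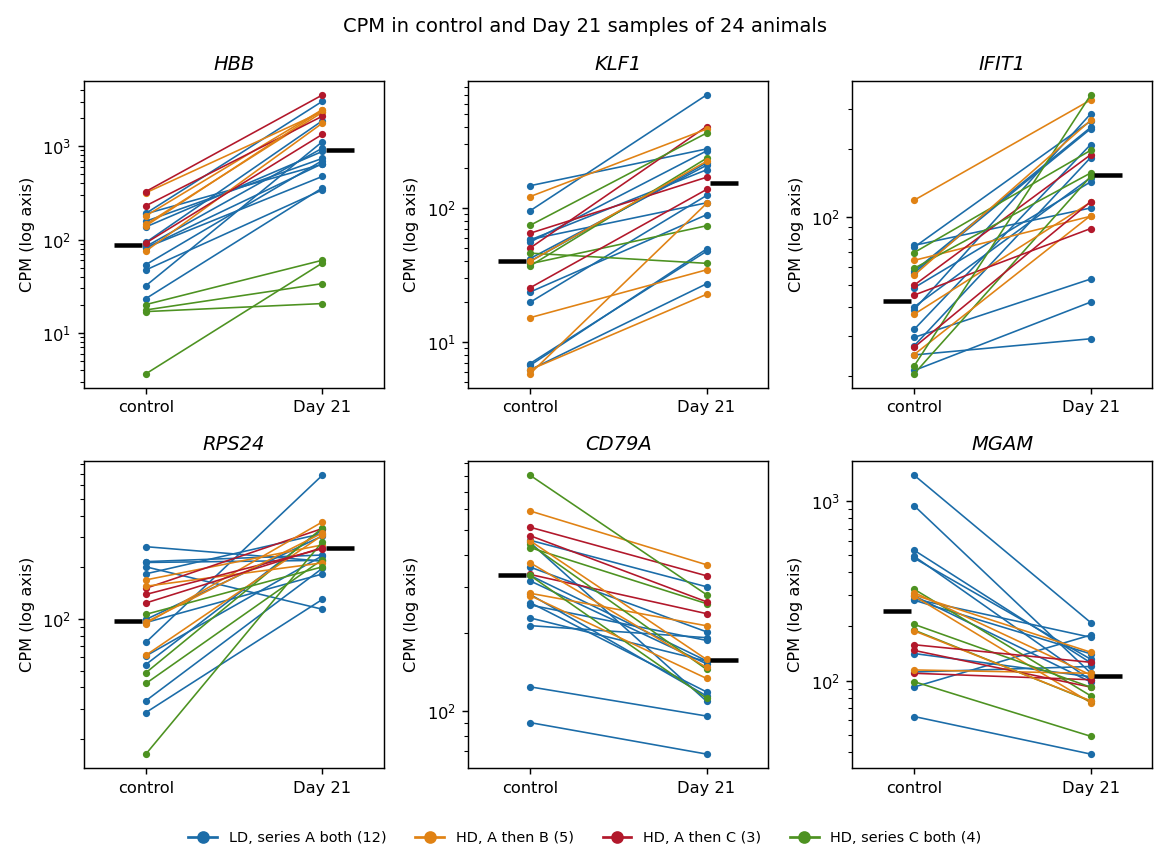
CPM on a log axis for HBB, KLF1, IFIT1, RPS24, CD79A and MGAM in the control and the Day 21 sample of each of the 24 animals. Each line joins the samples of 1 animal, colors give dose and library series, and black bars are medians. HBB rose in 24 of 24 animals but from a lower level in the 4 series C animals (3.64 to 20.1 CPM), and CD79A fell in 24 of 24.

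Sequence before the start of the annotated gene was searched for short motifs, because KLF1 and other erythroid genes are targets of known erythroid factors. The windows were 200 bases in Mmul_10, written 5′ to 3′ on the strand of the gene, which is the minus strand for KLF1. The motifs were the GATA motif (TGATAA or AGATAA, on either strand), whose letters GATA1 binds, and the CACCC motif (CACCC, on either strand), whose letters KLF1 binds. Capitals mark the motifs found.
KLF1 upstream (chr19:12471076-12471275): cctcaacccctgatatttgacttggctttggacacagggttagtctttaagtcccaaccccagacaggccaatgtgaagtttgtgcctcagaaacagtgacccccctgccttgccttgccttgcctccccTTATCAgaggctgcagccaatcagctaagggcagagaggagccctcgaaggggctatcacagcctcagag
The KLF1 window held 1 GATA motif starting 70 bases before the gene, and no CACCC motif.

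Over all tested genes with a window, 8.21% (1121 of 13655) held a GATA motif and 47.2% held a CACCC motif. The GATA motif was in 8 of 37 erythroid regulators (21.6%), in 5 of 22 membrane genes (22.7%) and in 1 of 17 globin and heme genes (5.88%). The CACCC motif was in 16 of 22 membrane genes (72.7%), 18 of 37 regulators (48.6%) and 9 of 17 globin and heme genes (52.9%). These are counts of letters in a window of annotated starts, with no test, and they do not show binding.

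Iron handling genes moved in part. Of 17 tested, 4 rose and none fell (23.5%, against 7.65% of all tested genes that rose, median log2 fold change 0.09). TFR2, a transferrin receptor expressed in erythroid cells, rose by a log2 fold change of 1.84 ± 0.16 (SE; adjusted p = 3.46e-10), from a median of 1.63 to 6.43 CPM. NCOA4, the receptor that carries ferritin to be broken down, rose by 1.29, and FTL, the ferritin light chain, by 1.15. FTL changed less in series C (0.44) than over the 24 animals.

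The 10 largest rises were taken from called genes with a symbol that were higher in 90% or more of the animals. Of these 10, 5 were in HBA, HBB, KLF1, SELENBP1 and AHSP, given above. Of the others, HDAC11, a histone deacetylase, went from a median of 23 CPM (3.85 to 82.1) to 111.3 CPM (29.5 to 482), with a log2 fold change of 2.18 ± 0.15 (SE; adjusted p = 6.17e-12). MPP2, a membrane scaffold protein, rose by a log2 fold change of 2.06, and FANCL, the ubiquitin ligase of the Fanconi anemia DNA repair pathway, by 2.03. PRSS47, a serine protease, rose by 2.01 and RANBP17, a nuclear transport receptor, by 1.98. All of these rose in 24 of 24 animals except FANCL, which rose in 23.

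Some genes of DNA replication and mitosis rose. Of 41 tested, 15 rose and none fell (36.6%, median log2 fold change 0.41). MELK, a mitotic kinase, went from a median of 3.57 CPM (0.701 to 6.96) to 11.5 CPM (3.68 to 31.8), with a log2 fold change of 1.69 ± 0.18 (SE; adjusted p = 1.04e-08). BUB1B, a kinase of the spindle checkpoint, rose by 1.47 and NUSAP1, a spindle protein, by 1.33, each in 24 of 24 animals. MKI67, the proliferation marker Ki-67, had a median of 51.1 CPM in the controls and 64.8 CPM on Day 21 and did not pass the test (log2 fold change 0.21 ± 0.11, adjusted p = 0.119). With a correction for GC content and gene length, 8 of the 41 were called.

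A part of the interferon response genes rose. Of 39 tested, 15 rose and none fell (38.5%, median log2 fold change 0.41), and their median change was above 0 in 21 of 24 animals. IFIT1 (chr9:89628584-89669645), which binds viral RNA, lay between 20.4 and 118.5 CPM in the controls (median 42.7) and between 29.1 and 344 CPM on Day 21 (median 153). It was higher in 24 of 24 animals, with a log2 fold change of 1.79 ± 0.16 (SE; adjusted p = 5.03e-10). CMPK2, a mitochondrial nucleotide kinase induced by interferon, went from a median of 10.4 CPM (2.82 to 40.2) to 34.9 CPM (4.04 to 75.9) and rose by a log2 fold change of 1.56 in every animal. IFI27, an interferon-induced mitochondrial protein, rose by 1.33 in 23 of 24 animals.

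Upstream sequence of a pair of interferon response genes with the interferon element is shown, and these genes were chosen for the element after their values were seen. Capitals mark the element, searched as GAAA, 2 bases of any kind and GAAA on either strand, and the 200 base windows are from Mmul_10, 5′ to 3′ on the strand of the gene (minus for ISG15, plus for IFIT2).
ISG15 upstream (chr1:223405103-223405302): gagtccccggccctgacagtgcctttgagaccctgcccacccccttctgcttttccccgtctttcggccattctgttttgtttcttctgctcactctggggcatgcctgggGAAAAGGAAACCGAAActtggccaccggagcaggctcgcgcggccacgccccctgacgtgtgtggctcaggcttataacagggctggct
IFIT2 upstream (chr9:89563260-89563459): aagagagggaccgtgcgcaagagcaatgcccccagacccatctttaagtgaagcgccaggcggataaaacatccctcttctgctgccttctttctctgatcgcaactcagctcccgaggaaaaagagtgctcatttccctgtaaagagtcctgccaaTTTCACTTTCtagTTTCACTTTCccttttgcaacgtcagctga
The ISG15 window held 2 overlapping matches, starting 89 and 83 bases before the gene, and the IFIT2 window held 2 matches, starting 43 and 30 bases before it. ISG15, a ubiquitin-like protein, went from a median of 2.81 CPM (0.433 to 8.81) to 7.05 CPM (3.16 to 23.2), with a log2 fold change of 1.25 ± 0.17 (SE; adjusted p = 6.24e-07). IFIT2, a relative of IFIT1, went from 53.4 CPM (21.1 to 172) to 98.8 CPM (43.6 to 352), with a log2 fold change of 1.06 ± 0.18 (adjusted p = 1.55e-05). The element was in 11 of 39 interferon response genes (28.2%) and in 2.22% of all tested genes with a window (303 of 13655). Among the 15 interferon response genes that rose, 8 held it (53.3%), against 36 of all 1050 genes called higher with a window (3.43%).

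Of 28 B cell genes tested, 9 fell and none rose (32.1%, median log2 fold change -0.44), and the list's median change was below 0 in all but 1 of 24 animals. CD79A (chr19:41019374-41024437), a signaling chain of the B cell receptor, lay between 90.4 and 809 CPM in the controls (median 334) and between 68.4 and 366 CPM on Day 21 (median 157). It fell in 24 of 24 animals, with a log2 fold change of -0.93 ± 0.096 (SE; adjusted p = 5.55e-09), while the ranges overlapped.

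The B cell markers did not move to the same extent. TNFRSF13C, the receptor of the survival factor BAFF, fell by 0.84 on the log2 scale in 21 of 24 animals, and FCRLA, an Fc receptor-like protein, fell by 0.76 in 24 of 24. MS4A1, which encodes CD20, had a median of 238.9 CPM in the controls (81.4 to 499) and 235.5 CPM on Day 21 (67.3 to 460), and did not pass the test (log2 fold change -0.05 ± 0.12, adjusted p = 0.753). Of 17 plasma cell genes, 2 rose and none fell (11.8%, median -0.16), against 7.65% of all tested genes that rose. JCHAIN, the joining chain of secreted antibodies, rose by 0.88 and SEC11C, a signal peptidase subunit, by 0.62, but neither was called with the GC and length correction.

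T cell and cytotoxic genes showed few calls. Of 21 T cell genes, 2 rose and none fell (9.52%, median log2 fold change -0.08), a share near the 7.65% of all tested genes. CD3E, a chain of the T cell receptor complex, had medians of 372 CPM in the controls and 308 CPM on Day 21, with a log2 fold change of -0.25 ± 0.081 (SE; adjusted p = 0.00954), under the fold threshold. The genes that rose were SH2D1A (0.62), an adaptor of lymphocyte signaling, and ICOS (0.60), a co-stimulatory receptor, and neither was called with the GC and length correction.

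Of 26 cytotoxic lymphocyte genes, 3 rose and 1 fell (11.5% and 3.85%), against 7.65% and 2.73% of all tested genes. The granule proteases GZMK (0.79) and GZMA (0.78) and the cytokine IFNG (0.66) rose, and ZNF683, a factor of tissue-resident lymphocytes, fell by 0.70 on the log2 scale. Without the series C pairs ZNF683 was not called and none of the list fell. With the GC and length correction the 3 rises were not called. Of 12 checkpoint and regulatory genes 1 rose (8.33%), against 7.65% of all tested genes. This was PDCD1LG2 (0.68), a ligand of the PD-1 receptor, and it was not called with the GC and length correction. None of the 13 naive lymphocyte genes was called in either direction (median -0.23). Their summed CPM was lower on Day 21 in 24 of 24 animals, with medians of 4573 in the controls and 3692 on Day 21. Such a sum weighs abundant genes most. The list's median log2 change ranged from -0.877 to 0.247 and was above 0 in 5 of 24 animals.

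Of 19 mature neutrophil genes tested, 10 fell and none rose (52.6%, median log2 fold change -0.62), against 2.73% of all tested genes that fell. MGAM, a maltase-glucoamylase expressed in granulocytes, lay between 63.1 and 1389 CPM in the controls (median 243) and between 39 and 210.4 CPM on Day 21 (median 106.2), lower in 22 of 24 animals (log2 fold change -1.16 ± 0.18 SE, adjusted p = 4.37e-06). TREM1, an activating receptor of myeloid cells, fell by 0.80, and IL1R2, the decoy receptor of interleukin-1, by 0.77. IL1R2 is also among the glucocorticoid-responsive genes. The list's median change was above 0 in 5 of 24 animals and ranged from -1.783 to 0.658, so animals differed widely.

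Of 18 neutrophil granule genes, 2 fell and none rose (11.1%, against 2.73% of all tested genes that fell). CHI3L1, a chitinase-like protein, fell by 0.80 on the log2 scale and LTF, lactoferrin, by 0.65. MPO, the myeloperoxidase of primary granules, had medians of 1.08 CPM in the controls and 1.13 CPM on Day 21 and did not pass the test (log2 fold change 0.10 ± 0.25 SE, adjusted p = 0.761). The granule genes ELANE, PRTN3 and CTSG were too low to test.

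The 10 largest falls were taken from called genes with a symbol that were lower in 90% or more of the animals. MGAM and HSPA1A are in the lists and the other 8 are not. CRISPLD2, a secreted protein that binds endotoxin, went from a median of 89.9 CPM (19.1 to 818) to 34.8 CPM (9.90 to 118.3), lower in 24 of 24 animals (log2 fold change -1.44 ± 0.15 SE, adjusted p = 6.5e-09). CLTCL1, a clathrin heavy chain, fell by 1.47 in 22 of 24 animals, but its log2 fold change was -1.84 in LD and -0.12 in the series C animals. IGF2R, the receptor that sorts lysosomal enzymes, went from a median of 731 CPM (312 to 3467) to 334 CPM (203 to 557) and fell by 1.18 on the log2 scale. WLS, which carries Wnt proteins to the cell surface, fell by 1.17 in 24 of 24 animals, as did DENND2A, a Rab exchange factor, by 1.05. TEKT2, PDZD3 and LRRN1 fell by 1.17, 1.1 and 1.06.

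Monocyte genes moved both ways. Of 21 tested, 8 rose and 2 fell (38.1% and 9.52%, median log2 fold change 0.33). MS4A7, a membrane protein of monocytes and macrophages, went from a median of 10.7 CPM (4.95 to 36.6) to 28.5 CPM (13 to 49.9) and rose in 24 of 24 animals (log2 fold change 1.13 ± 0.094 SE, adjusted p = 1.12e-10). CD300E, a monocyte activating receptor, and FCGR1A, the high-affinity IgG receptor, each rose by 1.01. CD14, the endotoxin co-receptor of classical monocytes, fell by 0.59 on the log2 scale, from a median of 225.3 to 152.4 CPM, and VCAN, the proteoglycan versican, fell by 0.63. Neither fall was called in the 20 animals outside the series C pairs, where 7 monocyte genes rose and none fell. With the GC and length correction 5 rose and 1 fell.

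Of 18 complement genes 2 rose and none fell (11.1%, against 7.65% of all tested genes that rose), and 1 rose with the GC and length correction. CR1, the receptor of C3b on red cells and white cells, and C3AR1, the receptor of C3a, rose (both 0.63). The C1q chains C1QA (-0.01), C1QB (0.34) and C1QC (-0.14) were not called. Of 9 eosinophil genes 2 rose (22.2%, against 7.65% of all tested genes that rose), and none was called within the series C animals. The 2 were ALOX15, a lipoxygenase (0.90), and RNASE3, the eosinophil cationic protein (1.07). RNASE3 was near the floor, with LD medians of 0.409 CPM in the controls and 0.975 CPM on Day 21. The median change of the eosinophil list was above 0 in 15 of 24 animals. In basophil and mast cell genes, 3 of 9 fell (33.3%, against 2.73% of all tested genes that fell). These were IL3RA (0.73 on the log2 scale), the receptor of interleukin-3, KIT (0.65), the receptor of stem cell factor, and GATA2 (0.61), a factor of early blood progenitors.

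Of 28 platelet genes, 4 rose and none fell (14.3%, against 7.65% of all tested genes that rose). The list's median log2 fold change was 0.00. MMRN1, a carrier of factor V in platelets, rose by 0.85 in 24 of 24 animals, RGS18, a brake on platelet signaling, by 0.80 and P2RY12, the ADP receptor, by 0.77. None of the 4 was called with the GC and length correction, and the median change of the list was above 0 in 12 of 24 animals.

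**Figure D2:**
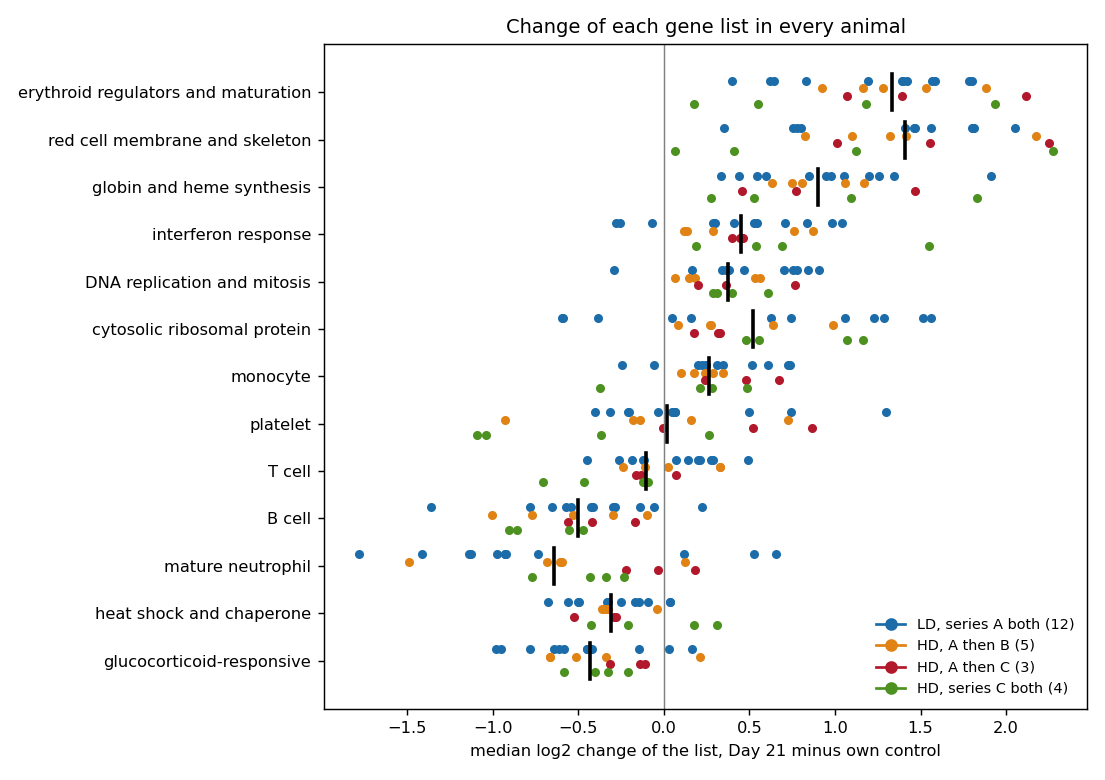
Median log2 change from own control for 13 gene lists (vertical axis) in each of the 24 animals. Points are animals, colored by dose and library series, and black bars are medians over animals. The 3 erythroid lists lay above 0 in 24 of 24 animals, and the B cell list lay above 0 in 1.

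The number of ribosomal protein genes called depended on the correction, which took GC content and gene length together. Of 56 cytosolic ribosomal protein genes, 26 rose and none fell (46.4%, median log2 fold change 0.50), and 14 were called with the GC and length correction. RPS24, a protein of the small subunit, had a median of 97.6 CPM in the controls (mean 113.6 ± 68.1 SD, highest 264) and 258 CPM on Day 21 (mean 272.3 ± 109.8, highest 686), higher in 22 of 24 animals (log2 fold change 1.46 ± 0.22 SE, adjusted p = 4.18e-06). RPL26 rose by 1.44 and RPL34 by 1.17. Genes of this family have near-identical processed copies in primate genomes, so their counts are uncertain. Of 35 oxidative phosphorylation genes, 7 rose (20%, against 7.65% of all tested genes that rose). They were led by COX7B, a subunit of cytochrome c oxidase. It rose in 24 of 24 animals from a median of 24.5 to 90.0 CPM (log2 fold change 1.96). With the correction, 2 of the 35 were called.

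Of 31 proteasome genes, 3 rose (9.68%, against 7.65% of all tested genes), and none was called with the correction. The 3 were PSMC6 (0.71 on the log2 scale), PSMC2 (0.63) and PSMA6 (0.63). Over all tested genes, the tercile with the lowest GC content had a median log2 fold change of 0.197, with 12.2% of its genes higher and 1.03% lower. The tercile with the highest GC content had a median of -0.1205, with 4.25% higher and 3.77% lower. By transcript length, 10.8% of the genes in the shortest tercile and 5.24% in the longest were higher. This difference between low and high GC genes was largest in the 4 series C animals, with a median of 1.188 (range -0.438 to 1.415), against 0.151 in the LD animals (-0.261 to 1.036) and 0.113 in the 3 animals that went from A to C. The separate parts of GC content and gene length in the ribosomal, proteasome and oxidative phosphorylation calls were not tested beyond the corrected counts given here.

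**Figure D3:**
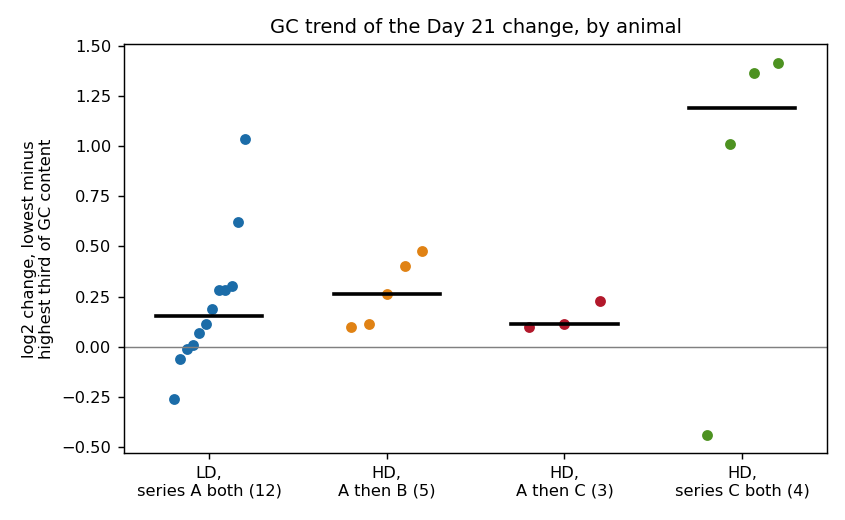
Difference in median log2 change between the tested genes in the lowest and the highest tercile of GC content, for each animal. Points are animals, grouped by dose and library series, and black bars are medians. The series C animals had a median of 1.188 and the LD animals a median of 0.151.

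A few chaperone genes fell in nearly every animal. Of 20 heat shock and chaperone genes, 4 fell and none rose (20%, against 2.73% of all tested genes that fell). Their median log2 fold change was -0.18. Within the 4 series C animals, 3 of the 20 rose and 5 fell. FKBP4, a co-chaperone of steroid receptors, lay between 39.9 and 95.4 CPM in the controls (median 55.3) and between 22 and 45.4 CPM on Day 21 (median 31.8), lower in 24 of 24 animals (log2 fold change -0.87 ± 0.068 SE, adjusted p = 3.99e-11). HSP90AB1, the constitutive HSP90, went from a median of 679.9 CPM to 398 CPM and also fell in 24 of 24, by 0.76 on the log2 scale. HSPA1A, an inducible HSP70 with near-identical copies, fell by 1.03 in 23 of 24 animals.

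Of 19 glucocorticoid-responsive genes, 4 fell and 1 rose (21.1% and 5.26%, against 2.73% and 7.65% of all tested genes). Their median log2 fold change was -0.41. Besides IL1R2, TXNIP, an inhibitor of thioredoxin, fell by 0.67 on the log2 scale and TPST1, a tyrosine sulfotransferase, by 0.67, while ECHDC3, an enoyl-CoA hydratase homolog, rose by 0.64. The rise of ECHDC3 was not called without the series C pairs. No circadian clock gene of 16 was called (median -0.17). Of 19 immediate early genes, 3 rose and 2 fell (15.8% and 10.5%, against 7.65% and 2.73% of all tested genes). KLF4, a factor of monocyte differentiation, rose by 1.04 in 24 of 24 animals, IER3 by 0.88 and ATF3 by 0.86, while JUN and FOS, the partners in AP-1, fell by 0.65 and 0.59 on the log2 scale.

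The p53 target genes were near the background, with 3 of 30 higher and none lower (10.0%, median log2 fold change 0.09). GADD45A, a stress gene of growth arrest that is also expressed in erythroid cells, went from a median of 23.2 CPM (7.29 to 104.1) to 55 CPM (20.3 to 304.5), with a log2 fold change of 1.05 ± 0.12 (SE; adjusted p = 4.6e-08). RPS27L rose by 0.84 and EDA2R, the ectodysplasin A2 receptor, by 0.70, the latter from a median of 0.619 to 0.999 CPM. CDKN1A, the cell cycle inhibitor p21, had a log2 fold change of 0.22 ± 0.064 (adjusted p = 0.00538), under the fold threshold, and MDM2, the ligase that degrades p53, -0.26 ± 0.090 (adjusted p = 0.0183), also under it.

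Of the 41 tested genes that the study names at Day 21, 8 rose and 7 fell (19.5% and 17.1%). Over all tested genes the shares were 7.65% and 2.73%. The study chose these genes on these samples, so their directions are not independent evidence. Besides ALAS2 and DCAF12, given above, the risers included DCUN1D1 (1.48), R3HDM4 (1.29), RNF14 (1.14), CISD2 (0.84) and ATAD2 (0.74). HSP90AB1, given above, fell, and CBL, a ligase that ends receptor signaling, fell by 0.83 on the log2 scale. IFT172, ZHX2, JAK1, MARK2 and ARMCX4 fell by 0.65, 0.64, 0.63, 0.61 and 0.60. In the 20 animals outside the series C pairs 8 rose and 4 fell, and with the GC and length correction 7 rose and 3 fell.

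The next comparison asked whether the Day 21 change depended on dose. In LD, 1009 genes were higher (7.34%) and 377 lower (2.74%), and in HD 1126 were higher (8.19%) and 466 lower (3.39%). The comparisons share no samples, and 954 genes were called in both, all in the same direction, which is 68.8% of the LD calls and 59.9% of the HD calls. Of the erythroid genes, LD and HD gave similar counts, with 29 of 37 regulators higher in LD and 31 of 37 in HD, 19 and 18 of 22 membrane genes, and 13 of 17 globin and heme genes in each. Of the mature neutrophil genes, 14 of 19 fell in LD and 6 of 19 in HD, and of the proteasome genes 1 of 31 rose in LD and 8 of 31 in HD. Dose and library series cannot be told apart in these counts. By animal, the proteasome list's log2 change had a median of 0.102 in LD and 0.42 in the series C animals. It was 0.086 in the HD animals that went from A to B and 0.042 in those that went from A to C.

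When the difference between doses was tested directly, 0 genes (0%) passed an adjusted p of 0.05 in edgeR's quasi-likelihood test, 993 had an unadjusted p under 0.05, and DESeq2 also called 0. The log2 change of HBB was 3.30 ± 0.26 (SE) in LD and 3.14 ± 0.34 in HD, a difference (HD minus LD) of -0.15 ± 0.43. KLF1 differed by -0.15 ± 0.34, IFIT1 by 0.15 ± 0.32, RPS24 by 0.42 ± 0.44 and CD79A by -0.20 ± 0.19. The 5 genes of lowest p were HIST1H2AJ (-1.40), LOC114679672 (1.31), CEBPB (0.84), RTN4 (0.59) and RAC1 (0.46), each with an adjusted p of 0.667. CEBPB, a factor of myeloid cells, had a log2 change of -0.52 in LD and 0.32 in HD.

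**Figure D4:**
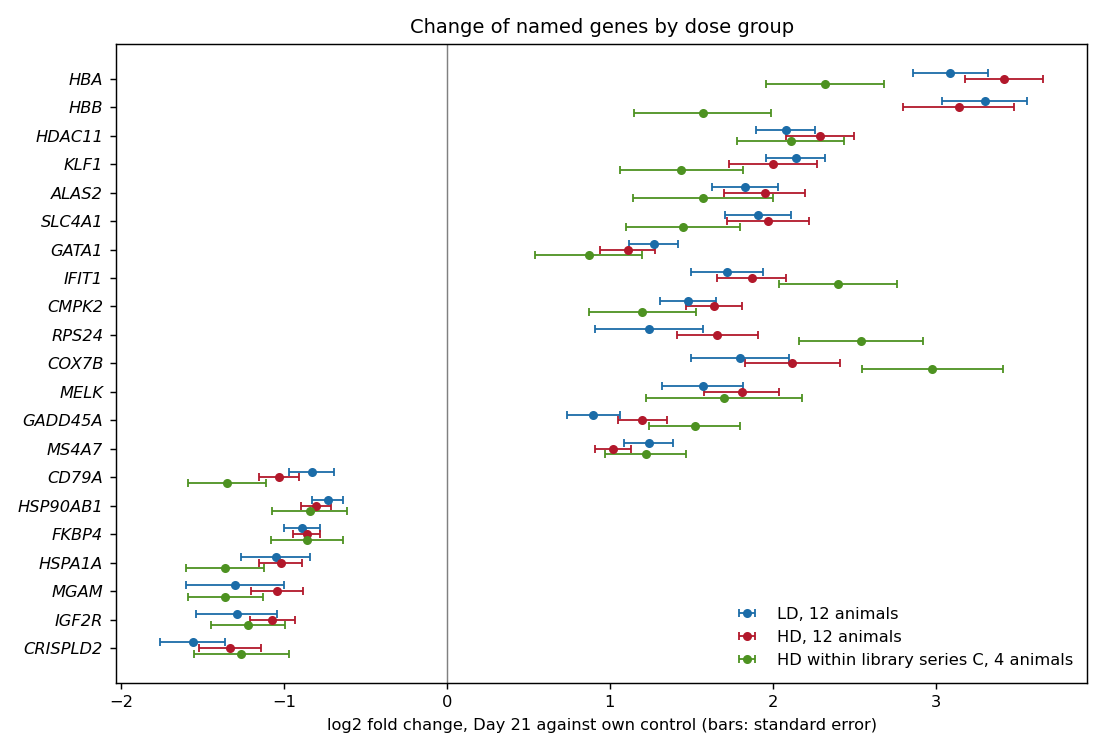
Log2 fold change against own control for 21 named genes in LD (12 animals), HD (12 animals) and the 4 HD animals with both samples in library series C. Bars are standard errors. LD and HD lay close for the erythroid genes (HBB 3.30 and 3.14), while series C gave 1.57 for HBB and 2.54 for RPS24.

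The count of dose differences changed with the animals included. In the 16 animals with both samples in 1 series (12 LD in A and 4 HD in C), 974 genes differed between the doses (7.08%), 412 with a higher and 562 with a lower change in HD. In that set dose and library series cannot be told apart, and single animals set the count, which was 68 without B2003, 71 without B2005, 17 without B2504 and 3786 without B2503. Within HD, 998 genes (7.26%) differed between the 8 animals whose series changed and the 4 whose series did not. When LD was compared with the 8 HD animals whose series changed, 0 genes passed and 424 had an unadjusted p under 0.05.

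Within the 4 HD animals of series C, 1261 genes were higher (9.17%) and 1024 lower (7.45%). The erythroid genes rose here too, with 20 of 37 regulators, 12 of 22 membrane genes and 8 of 17 globin and heme genes higher and 2, 1 and 0 lower, at log2 fold changes of 1.57 for ALAS2, 1.44 for KLF1 and 1.45 for SLC4A1. Ribosomal protein genes rose in 31 of 56 and B cell genes fell in 13 of 28. The count of calls was unsteady. Without B2503 it was 5469, without B2504 297, without B2005 695 and without B2003 854.

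Leaving out the 4 series C pairs, 944 genes were higher and 317 lower in the other 20 animals. Of the 1427 calls over 24 animals, 1173 (82.2%) were also called in these 20. The erythroid lists then gave 13 of 17, 19 of 22 and 31 of 37 genes higher, interferon response genes 15 of 39 higher and B cell genes 8 of 28 lower. Of the ribosomal protein genes 23 of 56 rose, of the proteasome genes 1 of 31 and of the plasma cell genes 1 of 17. Of the mature neutrophil genes 9 of 19 fell, of the neutrophil granule genes 3 of 18, of the glucocorticoid-responsive genes 5 of 19 and of the naive lymphocyte genes 1 of 13.

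Females and males were compared in the same way. In the 12 females 1637 genes were called (11.9%) and in the 12 males 1230 (8.94%), of which 997 were shared, all in the same direction (60.9% and 81.1%). The test of the difference itself called 0 genes (0%), with 1.56% at an unadjusted p under 0.05, and DESeq2 also called 0. The genes of lowest p were LOC706087, RIMS3, RAB3A, SYCP3 and CLNK, all with an adjusted p of 1. The sex difference had a standard error of 0.43 on the log2 scale for HBB and 0.32 for ALAS2.

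Day 21 was then set against earlier days in the 12 LD animals, whose samples were all in series A. The nearest earlier day was Day 15. Here 217 genes were called, 0.814% of the tested genes higher on Day 21 and 0.764% lower. With trimmed mean of M-values (TMM) scaling the split was 83 higher and 143 lower, with DESeq2 it was 73 and 167, and with the GC and length correction 49 of 187 calls were higher, so the balance of directions depended on the scaling. Without B1504 the number of calls was 339, and without the block for animals it was 75.

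Some red cell genes were lower on Day 21 than on Day 15. Of the regulators, 9 of 37 fell, of the membrane genes 6 of 22, and of the globin and heme genes 2 of 17, and none rose. TRIM58 fell by 0.93 on the log2 scale (SE 0.21, adjusted p = 0.00634 in edgeR's quasi-likelihood test) and SLC4A1 by 0.76. TENT5C, a poly(A) polymerase expressed in erythroblasts, fell by 0.84. HBB, like most globin and heme genes, was not called, with medians of 830.2 CPM on Day 15 and 721 CPM on Day 21 and a log2 fold change of -0.04. UNC5D and PTPRK fell by 0.85 and 0.84.

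Some ribosomal protein genes went the other way, with 17 of 56 higher on Day 21 than on Day 15 and 6 of 56 with the GC and length correction. RPL26 rose by 0.88, RPL34 by 0.81 and RPS24 by 0.62. Other rises were in TMEM191C (0.96), MT1M (0.94), a metallothionein that binds zinc, RNF151 (0.91) and ATP23 (0.89). Of 28 platelet genes 3 fell, and none of the B cell, T cell, interferon response or p53 target genes was called.

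Day 21 was also set against Day 3 in these LD animals. On Day 21, 1141 genes were higher than on Day 3 (8.3%) and 715 lower (5.2%), while the split was 792 and 894 with TMM, 797 and 916 with DESeq2 and 694 and 843 with the GC and length correction. The median over all tested genes was 0.10 on the log2 scale, and 0.04 with TMM.

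B cell genes were higher on Day 21 than on Day 3, in 18 of 28 with none lower (median log2 fold change 0.80). MS4A1 rose by 1.24 (SE 0.13, adjusted p = 1.38e-06 in edgeR's quasi-likelihood test), while CD79A had a median of 125.7 CPM on Day 3 and 154 CPM on Day 21 and was not called (log2 fold change 0.21). Other rises were in ZNF860 (1.77), CCDC187 (1.45), SOX5 (1.40) and HS3ST1 (1.38). Red cell genes also stood higher, with 18 of 37 regulators and 12 of 22 membrane genes up and 1 down in each. HBB rose by 1.44, from a median of 286 CPM to 721 CPM.

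Platelet genes were lower on Day 21 than on Day 3, in 26 of 28 (median log2 fold change -1.21). GP1BB, a chain of the von Willebrand factor receptor, fell by 2.14 on the log2 scale. The C1q chains C1QA, C1QC and C1QB fell by 2.96, 2.95 and 2.41, among 9 of 18 complement genes that fell. Of the p53 targets, 6 of 30 fell. EDA2R fell by 2.21 and CDKN1A by 1.34, the latter from a median of 144 CPM on Day 3 to 56.5 CPM on Day 21, against 46.2 CPM in the same animals' controls.

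The lists kept different courses over the first 3 weeks in LD. The median log2 change of the erythroid regulators from own control averaged 0.71 ± 0.53 (SD over 12 animals) on Day 3. It was 1.12 ± 0.53 by Day 6 and 0.95 ± 0.71 by Day 9. The highest mean, 1.71 ± 0.66, came on Day 15, before the 1.22 ± 0.48 of Day 21. That of the B cell genes averaged -1.18 ± 0.58 on Day 3, -0.61 ± 0.43 on Day 15 and -0.44 ± 0.40 on Day 21. That of the platelet genes averaged 1.30 ± 0.65 on Day 3, 0.41 ± 0.53 on Day 15 and 0.13 ± 0.49 on Day 21. That of the p53 targets averaged 0.41 ± 0.17 on Day 3 and 0.08 ± 0.08 on Day 21, and that of the interferon response genes 0.37 ± 0.43 and 0.42 ± 0.45. All days share the same control samples, so these values are given side by side and the order of the days was tested only for Day 21 against Days 3 and 15.

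**Figure D5:**
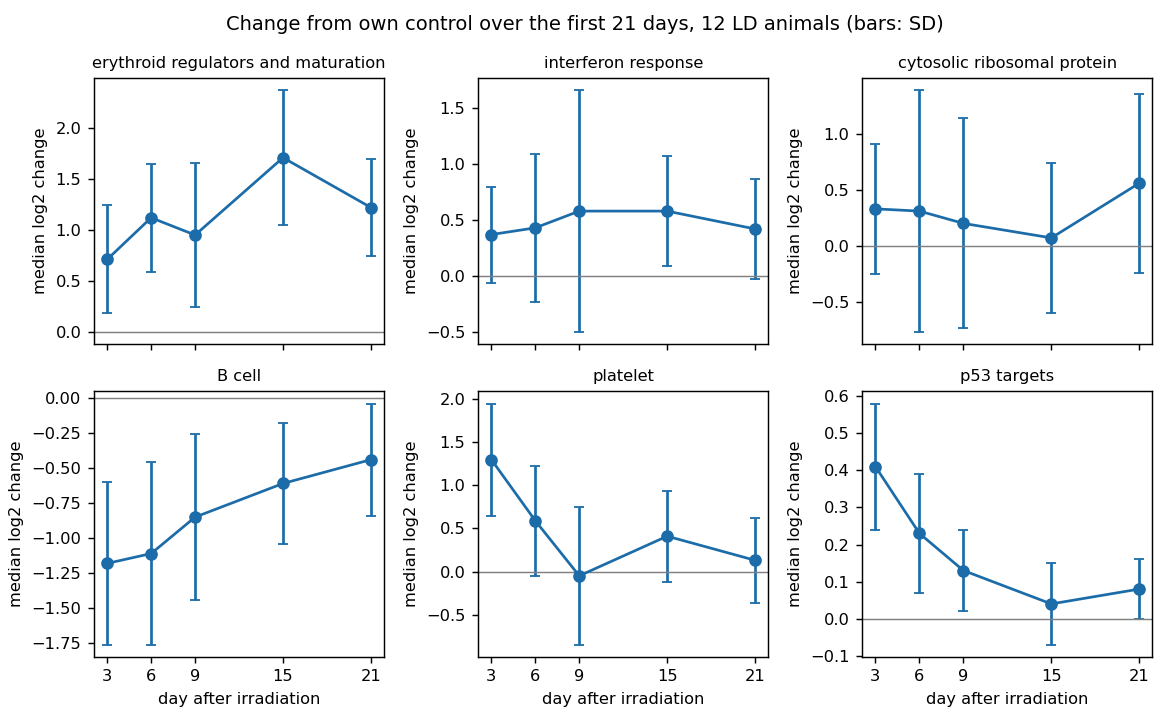
Median log2 change from own control of 6 gene lists on Days 3, 6, 9, 15 and 21 in the 12 LD animals (horizontal axis, day after irradiation). Points are means over animals and bars are SD. The erythroid regulators averaged 1.71 on Day 15 and 1.22 on Day 21, and the B cell genes -1.18 on Day 3 and -0.44 on Day 21.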

How the data were processed

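Whole blood RNA was sequenced by the authors after ribosomal RNA depletion. Per the labels and the submitters' processing notes, reads were trimmed with cutadapt 2.10, aligned to Mmul_10 with STAR 2.7.6a and counted per gene with Subread 2.0.1. The strand setting of the counting is not given in the sources used here, so overlapping and antisense genes are uncertain. The authors deposited raw counts for 21070 genes and a table of log2 normalized values for 16730 genes.

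Samples were grouped by animal, day and dose as labeled, and each animal was its own control. A gene entered the tests where 80% or more of the series' samples held 3 counts or more (13751 genes). The tests used edgeR 4.0.16 (R 4.3.3) with upper quartile scaling, glmQLFit and glmQLFTest, a block for each animal, and p-values adjusted by Benjamini-Hochberg. A gene was called at an adjusted p of 0.05 or less and a fold change of 1.5 or more. Differences of the change between doses or sexes were called at the adjusted p alone. CPM values come from the counts with one upper quartile scaling over all samples of the series and are counts divided by the scaled library total, and log2 CPM used a prior count of 2. Pairs come from the animal in the labels. Deviations from the group means correlated at 0.102 to 0.654 within the 24 animals (median 0.475). Between different animals they correlated at -0.368 to 0.361 (median -0.0244), so the ranges overlapped. For 22 of the 24 animals the control correlated most with the animal's own Day 21 sample. The tests were also run on simulated counts with known changes, up or down with equal chance. The simulated counts held no effect of library series or GC content, so this check does not cover those. The animals are the replicates.

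Genes were named by a rule. From each of 28 lists it took the 3 largest rises and falls among called genes. Over all genes with a symbol it took the 10 largest rises and falls that 90% or more of the animals shared in direction, 5 and 5 for Day 21 against Day 15 and against Day 3, the 5 of lowest p for dose and for sex, the called genes that the study names, and a fixed set of markers. The members, lists and rule were chosen with earlier results of these data known. Within a list, counts are described and no set test was made. PF4 and other list members that were not in the table or were too low were not analysed here.

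Alternatives were TMM scaling, DESeq2 1.42.0, limma 3.58.1 on the deposited log2 values, no filter, a minimum of 10 counts, no block, animals of 1 library series, the library series as a further term, and fits that drop each animal in turn. A correction for GC content and gene length (spline with 5 degrees of freedom), a fit without the series C pairs and tests between library series were chosen after seeing the data. Upstream windows of 200 bases were read from Mmul_10. Some genes and sequences named by the rule are not reported here.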

Additional observations from a re-analysis of the deposited data

Results flagged for a closer look

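Each of 28 gene lists was looked at in 4 sets of 6 animals of one dose and sex. In 6 cases an animal lay far from the others in the median log2 change of a list. At an assumed rate of 5% of cases, 5.6 would be flagged by chance. The lists share animals, so the cases are not independent, and the count cannot decide whether chance gave these flags. B2504, a female given 10.7 Gy with both libraries in series C, had a plasma cell median of -0.571 where the others of its set lay between -0.105 and 0.065. The same animal had a circadian clock median of -0.698 (others -0.172 to 0.046) and a heat shock and chaperone median of 0.177 (others -0.427 to -0.279). B2003, a male given 10.7 Gy and also of series C, had an interferon response median of 1.55 (others 0.116 to 0.541) and an oxidative phosphorylation median of 0.564 (others -0.108 to 0.138). B1006, a male given 9.8 Gy, had a basophil and mast cell median of -0.912 (others -0.245 to 0.021).

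The dose difference of the Day 21 change held 974 genes in the 16 animals with both libraries in 1 series, by edgeR's test of the interaction, where dose and series A against C cannot be told apart. The test between HD animals that changed library series and those that did not called 998 genes, all animals having received the same dose.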

How the results depend on the processing

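Over the 24 animals, 1427 genes were called, 1418 with TMM, 1437 with DESeq2, 1500 with limma on the deposited values, 1732 without a filter, 1209 with a minimum of 10 counts, 1686 in the 16 animals of 1 library series, 1302 with the series as a covariate and 1043 with the GC and length correction with the animal block. Of the main calls, 1404 were shared with TMM, 1409 with DESeq2 and 857 (60.1%) with the GC and length correction. Leaving out single animals gave 1308 to 1531 calls. Ranges were 1186 to 1634 in LD, 297 to 5469 in the 4 animals of series C, 157 to 339 against Day 15 and 1707 to 2040 against Day 3.

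The count of dose differences moved from 0 to 3 without a filter, and these were the skeletal muscle genes ACTA1, MYH1 and MYL1, with 3 or more counts in 24, 7 and 3 of the 48 samples. In the 16 animals of 1 library series the count of dose differences moved to 974. In these animals it was 884 with the GC and length correction and the animal block, and 1670 with DESeq2. It was 68 without B2003, 71 without B2005, 3786 without B2503 and 17 without B2504. The cause was not tested.

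Without the replicate block, the calls were 1404 in the 24 animals, 1136 in LD, 1472 in HD, 2134 in series C, 1478 in females, 979 in males, 75 against Day 15 and 1520 against Day 3. Among values of named genes under the alternatives, 1259 kept direction and call, 82 kept direction but lost the call, 3 gained it and 0 reversed, and 280 list medians moved by less than the spread between animals. The HD Day 21 samples had the fewest counts (4692885 to 8093159), so low genes were least precisely measured there.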
